A study of Mus musculus with 8 samples.

Results

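The genes examined here encode the enzymes and chaperones that process collagen, and they are P4ha1, P4ha2, P4ha3, Plod1, Plod2, Plod3, Serpinh1, Fkbp10, Pcolce and Bmp1. They were taken by gene name from a table of 55679 genes, and all 10 were found and tested. RNA-seq was performed on left ventricles of 8 male wild-type (WT) C57BL/6J mice. The 4 control mice received saline for 7 days and the 4 ANG II mice received angiotensin II, a pressor peptide hormone, at 1500 ng/kg/min for the same 7 days, in both cases from an osmotic pump under the skin. No allele or agent besides these was given in the labels, and the age of the mice was not given in the sources used here. The libraries were made from whole left ventricle tissue, so every cell type of the wall contributes to each value, and fewer cells of a type and less RNA per cell cannot be told apart.

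Collagen chains are modified while they are still single strands in the endoplasmic reticulum (ER). Prolyl 4-hydroxylase, built from an alpha subunit (P4ha1, P4ha2 or P4ha3) and protein disulfide isomerase (P4hb), hydroxylates prolines and so keeps the triple helix stable at body temperature. Lysyl hydroxylases (Plod1, Plod2, Plod3) hydroxylate lysines that later carry sugars or form cross-links, the chaperones HSP47 (Serpinh1) and FKBP65 (Fkbp10) attend the chains during folding, and BMP1 with its enhancer PCPE-1 (Pcolce) cuts off the C-terminal propeptide outside the cell. In the heart, fibroblasts are the main source of fibrillar collagen.

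The libraries held 14455654 to 16564828 fragments, as read back from the steps of the deposited values. Expression is given as FPKM, the fragments of a gene scaled by transcript length and library depth. Each gene was tested with limma on log2(FPKM + 1), and "called" stands for a Benjamini-Hochberg adjusted p-value (over 19364 genes) under 0.05 together with a log2 fold change beyond 0.5 in either direction. Of these genes, 2708 were called higher in ANG II (14.0%) and 273 lower, and the median log2 fold change was 0.15. The first principal component held 57.6% of the variance and separated the groups. Mitochondrially encoded genes took 26.3 to 27.0% of the fragments in control and 19.2 to 21.8% in ANG II. The extraction label names CRC cells in place of heart, and the 8 cardiomyocyte markers checked against it summed to 33723 to 34658 FPKM in control and 24400 to 26487 FPKM in ANG II. No library stood against its group label.

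Of the 10 genes, 6 were called, all of them higher in ANG II (P4ha3, Plod2, Plod3, Fkbp10, Pcolce and Bmp1), against a background of 14.0% of all genes tested. The called log2 fold changes ranged from 0.81 for Plod3 to 2.07 for P4ha3. The ANG II libraries all lay above the control libraries for 7 of the 10 genes, against 28.7% of all genes tested. The median log2 fold change of the 10 genes was 0.91, beside 0.15 for all genes. The filter kept genes with a mean of 0.1 FPKM or more over the 8 libraries, and P4ha3 passed it only through the ANG II group. Among the other 9 genes, whose control means passed it too, 5 were called, 6 had groups that did not overlap and the median log2 fold change was 0.81. The 4 genes P4ha1, P4ha2, Plod1 and Serpinh1 had log2 fold changes of 0.08 to 0.40 and were not called. These 4 had control means between 33.8 and 234 FPKM, while the control means of the called genes lay between 0.0900 and 45.6 FPKM.

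**Figure D1:**
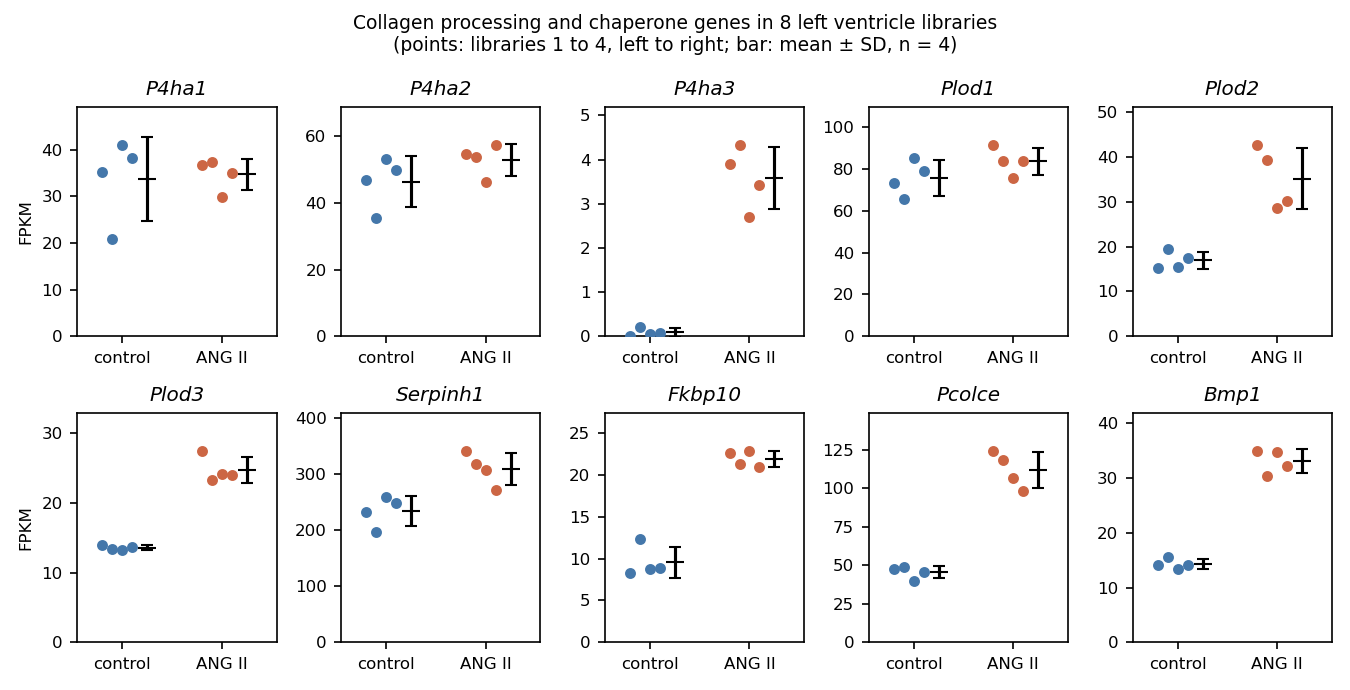
FPKM of each of the 10 genes (vertical axes from 0, a separate scale for each gene) in the 4 control and 4 ANG II libraries, with the mean and SD beside the points. The points of the groups are apart for P4ha3, Plod2, Plod3, Serpinh1, Fkbp10, Pcolce and Bmp1 and overlap for P4ha1, P4ha2 and Plod1.

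The prolyl 4-hydroxylase alpha subunit genes lie on chromosomes 10 (P4ha1, plus strand, 59323296 to 59373304), 11 (P4ha2, plus strand, 54100095 to 54131665) and 7 (P4ha3, plus strand, 100285520 to 100319699) of GRCm38. Their RefSeq promoter windows are shown because the 3 genes form alternative versions of the same enzyme subunit and differed in their response. Each window runs from 250 bases before to 50 bases after the start site in RefSeq (GRCm38.p6), on the strand of the gene. For P4ha1 and P4ha3 this start site is the first base of the gene span above. The P4ha2 window lies wholly inside its gene span, so its RefSeq start site is downstream of that first base. Capitals mark ACGTG, the core letters of a hypoxia response element, or CACGT where ACGTG lies on the opposite strand.
P4ha1 (chr10:59323046-59323345, plus strand): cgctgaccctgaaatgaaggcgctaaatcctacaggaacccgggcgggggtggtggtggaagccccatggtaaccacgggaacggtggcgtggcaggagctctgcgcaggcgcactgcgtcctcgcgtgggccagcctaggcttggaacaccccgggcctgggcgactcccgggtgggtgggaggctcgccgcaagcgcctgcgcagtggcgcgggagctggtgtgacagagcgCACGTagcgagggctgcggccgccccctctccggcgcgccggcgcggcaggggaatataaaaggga
P4ha2 (chr11:54100674-54100973, plus strand): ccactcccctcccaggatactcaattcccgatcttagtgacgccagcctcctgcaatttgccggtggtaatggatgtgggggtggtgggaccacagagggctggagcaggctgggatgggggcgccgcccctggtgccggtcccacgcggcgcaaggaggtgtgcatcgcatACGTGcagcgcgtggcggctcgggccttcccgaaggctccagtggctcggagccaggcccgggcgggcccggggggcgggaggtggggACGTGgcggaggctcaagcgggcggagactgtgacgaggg
P4ha3 (chr7:100285270-100285569, plus strand): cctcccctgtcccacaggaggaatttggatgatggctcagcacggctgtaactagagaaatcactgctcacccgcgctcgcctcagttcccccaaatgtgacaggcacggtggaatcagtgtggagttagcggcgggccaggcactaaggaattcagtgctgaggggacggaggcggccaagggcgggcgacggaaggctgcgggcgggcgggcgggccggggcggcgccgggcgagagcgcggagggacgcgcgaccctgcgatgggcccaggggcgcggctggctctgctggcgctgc

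ACGTG was present once in the P4ha1 window, 16 bases before the start site, and at 2 places in the P4ha2 window, 78 bases before and at base 11 after it. The letters were not in the P4ha3 window. Of the 7 genes with a RefSeq window (all but Plod2, Fkbp10 and Bmp1), 4 held ACGTG on either strand (P4ha1, P4ha2, Plod3 and Serpinh1), beside 19.6% of 32851 windows. GGGCGG, the letters of a GC box, was in 6 of the 7 windows and in 35.7% of all windows, and the P4ha3 window held it at 5 overlapping or neighbouring places. CCACG, part of the ER stress element and able to overlap ACGTG on the opposite strand, was in 5 of 7 windows (32.8% of all). CCAAT was in 1 (37.4%), GAANNTTC, letters of the heat shock element, in 1 (7.86%) and TATAAA in 2 (13.6%). The 7 windows held 53.3 to 70.3% G and C, and the share of all windows was not matched for this. A match of letters is not a measured site, and no binding was measured here.

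P4ha3 rose from values near 0. In control libraries 1 to 4 it stood at 0, 0.223, 0.0656 and 0.0710 FPKM, and in ANG II libraries 1 to 4 at 3.91, 4.33, 2.69 and 3.43 FPKM. Every ANG II library was above every control library. The log2 fold change was 2.07 (SE 0.134; limma adjusted p = 8.30e-06), a value that the added 1 FPKM holds down. The control mean of 0.0900 FPKM was under the filter of 0.1 FPKM, so P4ha3 entered this test only because of its ANG II values. In the fit with no filter the adjusted p-value by limma was 7.63e-05. In fragments, the 4 control libraries held 0, 6, 2 and 2 and the 4 ANG II libraries 109, 127, 75 and 101. The summed fragments were 10 against 412, a depth-scaled ratio of 40.4 with an exact 95% interval of 21.7 to 84.8 that covers counting error only. Control 2 held 6 of the 10 control fragments, and without it the ratio was 76.7 (29.7 to 283).

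P4ha1 and P4ha2, the alpha subunits expressed in most tissues, were not called. P4ha1 measured 35.3, 20.8, 40.9 and 38.2 FPKM in the control libraries and 36.6, 37.3, 29.9 and 35.1 FPKM in the ANG II libraries. The ANG II values lay within the range of the control values, and control 2 was far below the other libraries. The log2 fold change was 0.08 with a 95% interval of -0.33 to 0.49 (limma adjusted p = 0.784), and without control 2 it was -0.13. P4ha2 measured 46.8, 35.4, 52.9 and 49.7 FPKM in the control libraries and 54.4, 53.7, 46.0 and 57.1 FPKM in the ANG II libraries, which overlap. Its log2 fold change was 0.20 with a 95% interval of -0.06 to 0.46 (limma adjusted p = 0.228). Without control 2 it was 0.080, and without ANG II 3 the P4ha2 values no longer overlapped. A change of the size of the called members lies outside both intervals.

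As shares of the summed FPKM of the 3 alpha subunit genes, P4ha3 went from 0.137 ± 0.177% to 3.92 ± 0.508% (SD, n = 4 each), with no overlap. P4ha1 took 41.7 ± 3.25% and 38.1 ± 1.06%, and P4ha2 58.2 ± 3.09% and 58.0 ± 1.48%, in control and ANG II respectively, both with overlap. Without control 2 the P4ha1 shares no longer overlapped (43.0 to 43.6% in control, 36.7 to 39.2% in ANG II), and the difference in the P4ha2 share turned from -0.19 to 1.35 percentage points. P4ha3 was the smallest of the 3 in every library. These shares depend on the transcript length behind the FPKM values, which was the mean over all annotated transcripts of a gene. With the longest transcript of each gene instead, P4ha3 took 0.196% and 5.50%, and P4ha1 passed P4ha2 in both groups (58.9% and 40.9% in control, 53.8% and 40.7% in ANG II). P4hb, the partner subunit, which also serves as a general disulfide isomerase, rose from 159 ± 4.69 to 243 ± 14.8 FPKM (SD, n = 4 each; log2 fold change 0.60, SE 0.0530, limma adjusted p = 4.31e-05). With the median log2 fold change of all genes subtracted, P4hb was at 0.46, below the threshold of 0.5. The log2 ratio of the summed alpha subunits to P4hb was -1.02 ± 0.353 in control and -1.42 ± 0.133 in ANG II. The groups overlapped through control 2 alone, and without it the difference was -0.57 in place of -0.40, with no overlap.

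**Figure D2:**
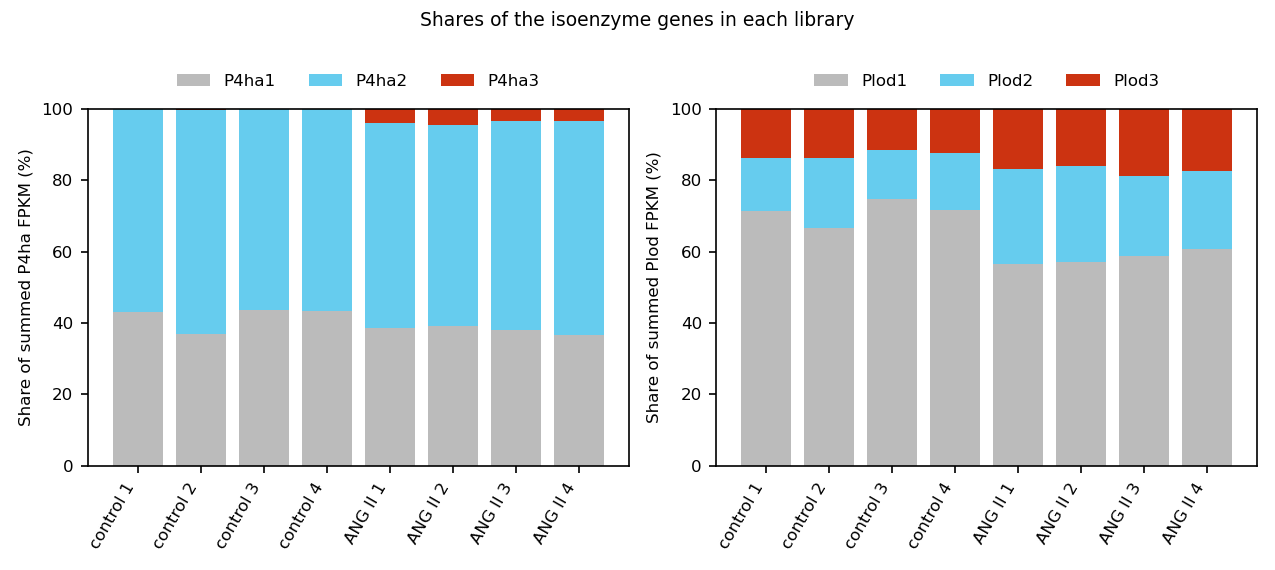
Share (%) of each gene in the summed FPKM of P4ha1 to P4ha3 (left) and Plod1 to Plod3 (right) in each library, as stacked bars. P4ha3 takes 3.43 to 4.54% in the ANG II libraries and at most 0.396% in the control libraries, and the Plod1 share is 66.6 to 74.7% in control and 56.6 to 60.8% in ANG II.

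Among the lysyl hydroxylases, Plod2 and Plod3 rose and Plod1 was not called. Plod2, which hydroxylates lysines in the telopeptides of fibrillar collagen and thereby sets the type of cross-link, lies on chromosome 9 (plus strand, 92542223 to 92608428). It measured 15.3, 19.4, 15.5 and 17.5 FPKM in the control libraries and 42.6, 39.2, 28.6 and 30.2 FPKM in the ANG II libraries. The groups were apart, and ANG II libraries 1 and 2 were higher than ANG II libraries 3 and 4. The log2 fold change was 1.00 (SE 0.131; limma adjusted p = 0.000367). Gm38391 covers 6.42% of the Plod2 exon bases from the other strand and averaged 0.156 FPKM without and 0.264 FPKM with ANG II.

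Plod3, which also carries glycosyltransferase activity, lies on chromosome 5 (plus strand, 136987019 to 136996648). It measured 14.0, 13.4, 13.3 and 13.6 FPKM in the control libraries and 27.4, 23.4, 24.1 and 23.9 FPKM in the ANG II libraries. Both groups were tight and far apart, and the log2 fold change was 0.81 (SE 0.0633; limma adjusted p = 2.18e-05). Znhit1 covers 11.7% of the Plod3 exon bases from the other strand. Whether the counting used strand was not given, so reads of both genes cannot be told apart there. Znhit1 itself, named for this overlap, went from 18.6 ± 1.27 to 19.5 ± 0.561 FPKM (SD, n = 4 each) and was not called.

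Plod1, which acts on lysines of the triple helix, lies on chromosome 4 (minus strand, 147909753 to 147936767). It measured 73.0, 65.3, 85.1 and 79.0 FPKM in the control libraries and 91.2, 83.5, 75.3 and 83.9 FPKM in the ANG II libraries. The groups overlapped, with a log2 fold change of 0.14 and a 95% interval of -0.05 to 0.34 (limma adjusted p = 0.230), and without control 2 it was 0.077. The make-up of the family shifted without overlap between the groups. The Plod1 share of the summed FPKM fell by 12.8 percentage points, from 71.1 ± 3.37% to 58.3 ± 1.88%. The Plod2 share went from 16.0 ± 2.64% to 24.4 ± 2.62% and the Plod3 share from 12.9 ± 1.01% to 17.3 ± 1.17% (SD, n = 4 each). Plod1 had the highest FPKM of the 3 genes in every library. With the longest transcripts, the Plod1 share was 64.8% in control and 51.1% in ANG II.

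The chaperones differed in the size of their change. Serpinh1 (HSP47), a chaperone that binds folded procollagen, lies on chromosome 7 (minus strand, 99345376 to 99353239) and had the highest FPKM of the 10 genes in both groups. It measured 233, 197, 259 and 248 FPKM in the control libraries and 341, 318, 307 and 272 FPKM in the ANG II libraries. The ANG II libraries were all above the control libraries, by a narrow gap between control 3 and ANG II 4. The log2 fold change, 0.40 (SE 0.0933; limma adjusted p = 0.00834), passed the p-value threshold and not the fold change threshold, so Serpinh1 was not called. With libraries scaled by the median of ratios it was 0.17 (limma adjusted p = 0.252), and with quantile normalization 0.26 (limma adjusted p = 0.0642).

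Fkbp10 (FKBP65), a prolyl isomerase that works with lysyl hydroxylase 2, lies on chromosome 11 (plus strand, 100415697 to 100424824). It measured 8.32, 12.3, 8.70 and 8.82 FPKM in the control libraries and 22.5, 21.2, 22.8 and 20.9 FPKM in the ANG II libraries. Control 2 stood above the other control libraries and still below every ANG II library. The log2 fold change was 1.13 (SE 0.109; limma adjusted p = 7.10e-05), and without control 2 it was 1.25. Nt5c3b covers 6.58% of the Fkbp10 exon bases on the opposite strand. It was not called, at 20.1 ± 2.11 against 21.5 ± 0.675 FPKM (SD, n = 4 each).

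Bmp1 and Pcolce both rose. Bmp1, the procollagen C-proteinase, lies on chromosome 14 (minus strand, 70474558 to 70520234). It measured 14.1, 15.6, 13.3 and 14.2 FPKM in the control libraries and 34.9, 30.3, 34.8 and 32.2 FPKM in the ANG II libraries. The groups were far apart, and the log2 fold change was 1.15 (SE 0.0687; limma adjusted p = 5.49e-06). Pcolce, which speeds the cut by BMP1 and is not itself a proteinase, lies on chromosome 5 (minus strand, 137605103 to 137613784). It measured 47.8, 48.8, 40.1 and 45.6 FPKM in the control libraries and 124, 118, 107 and 98.6 FPKM in the ANG II libraries. Every ANG II library was above every control library, and the log2 fold change was 1.28 (SE 0.0850; limma adjusted p = 9.70e-06). Fbxo24 shares 2.93% of the Pcolce exon bases and was at 0.244 FPKM in the control libraries and 0.328 FPKM in the ANG II libraries. Gm36266, on the other strand, covers 2.93% of them and averaged 0.334 FPKM without and 0.358 FPKM with ANG II. The log2 ratio of Pcolce to Bmp1 was 1.67 ± 0.0717 without and 1.76 ± 0.171 with ANG II (SD, n = 4 each), and the groups overlapped.

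The scaling of the libraries moved the values of called and uncalled genes. Scaling by the median of ratios moved the median log2 fold change of all genes from 0.15 to 0.0040, and quantile normalization moved it to -0.04. The calls over all genes then split into 1671 higher and 806 lower, or 1413 higher and 986 lower, in place of 2708 and 273. The 6 called genes were called under both scalings, with lower log2 fold changes. Plod3 was at 0.60 with the median of ratios and at 0.58 with quantile normalization, in place of 0.81. P4ha1 turned to -0.15 and -0.11, and Plod1 to -0.082 and -0.026, while P4ha2 was at -0.025 and 0.04. With the median of all genes subtracted, the deposited values gave -0.07 for P4ha1, 0.05 for P4ha2, -0.0030 for Plod1 and 0.26 for Serpinh1.

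**Figure D3:**
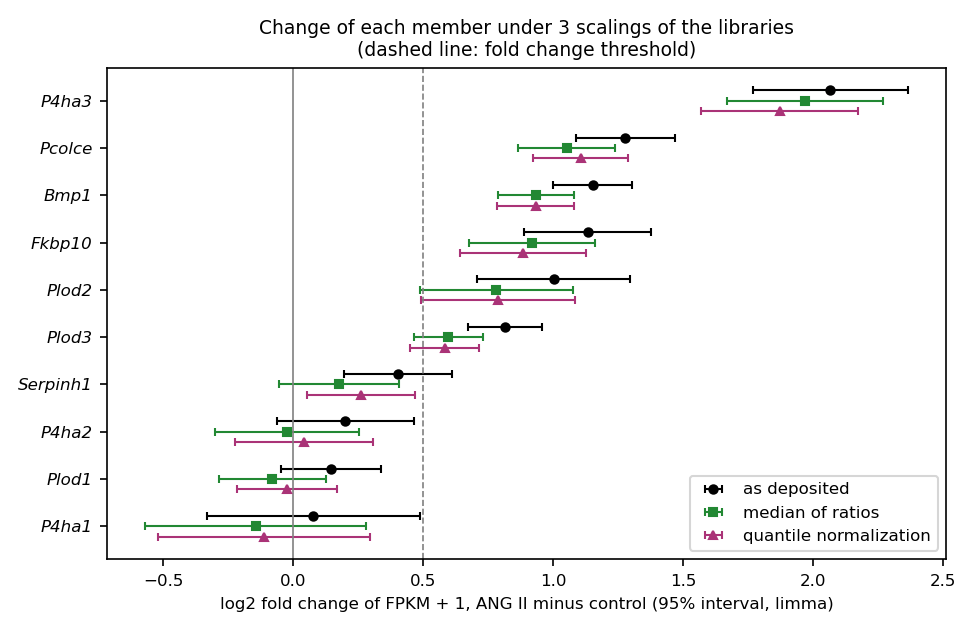
log2 fold change of FPKM + 1 (ANG II minus control) of each gene with its 95% interval from limma, for the deposited values and for 2 other scalings of the libraries. The point estimates of the 6 called genes lie above the dashed threshold at 0.5 in all 3, and P4ha1, P4ha2 and Plod1 lie around 0. The intervals of Plod2 and Plod3 reach below 0.5 under the 2 other scalings.

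The fibrillar collagen chains were set beside the enzymes and chaperones that act on them. Col1a1 and Col1a2, the chains of type I collagen, rose from 64.7 ± 17.2 to 608 ± 52.2 FPKM and from 67.2 ± 14.8 to 588 ± 56.5 FPKM (SD, n = 4 each). Their log2 fold changes were 3.25 (SE 0.164; limma adjusted p = 3.10e-06) and 3.13 (SE 0.140; limma adjusted p = 1.90e-06). Col3a1 rose from 162 ± 36.9 to 1190 ± 133 FPKM, a log2 fold change of 2.89. The log2 ratio of the summed FPKM of these 3 chains to Serpinh1 was 0.31 ± 0.482 in control and 2.95 ± 0.0457 in ANG II. To the summed P4ha genes it was 1.87 ± 0.635 and 4.71 ± 0.207, to the summed Plod genes 1.44 ± 0.406 and 4.06 ± 0.139, and to Fkbp10 4.94 ± 0.187 and 6.77 ± 0.0746. The groups were apart for all 4 ratios. The ratio differed between the groups by 2.64 for Serpinh1, 2.84 for P4ha, 2.61 for Plod and 1.83 for Fkbp10, which rose the most of these denominators. A ratio within a library does not move when the library is scaled by 1 factor, though quantile normalization can move it. These ratios compare transcript levels, and neither protein nor enzyme activity was measured.

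**Figure D4:**
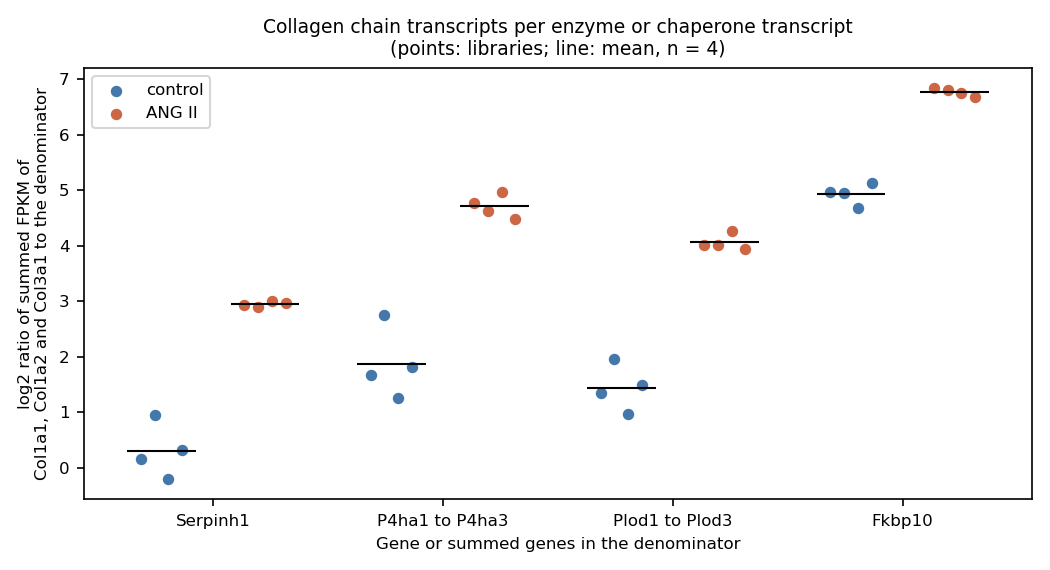
log2 ratio of the summed FPKM of Col1a1, Col1a2 and Col3a1 to Serpinh1, the summed P4ha genes, the summed Plod genes or Fkbp10, with 1 point per library and a line at the mean (n = 4). The ANG II libraries lie above the control libraries for each denominator, and control 2 is the highest control library for the first 3.

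The rest of the pathway was read from 9 lists. Of 11 fibrillar collagen chains, 7 were called higher and 0 lower, with a median log2 fold change of 2.10. Col5a2, a minor chain that joins type I fibrils, rose from 18.9 to 159 FPKM. Col5a3 (0.46) and Col11a2 (-0.04) were not called. All 5 lysyl oxidases, the enzymes that make aldehydes from the lysines and hydroxylysines outside the cell, were called higher, with a median of 1.73. Lox rose from 1.84 ± 0.497 to 44.1 ± 9.54 FPKM (SD, n = 4 each; log2 fold change 3.98), and Loxl3 and Loxl1 had 2.75 and 1.73.

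Of 13 other genes of collagen hydroxylation, glycosylation and folding, 9 were called higher and 0 lower, with a median of 0.66. The largest changes among these were in P3h3 (1.34), P3h2 (1.15) and Crtap (0.84). Fkbp9 (0.49) and Tmem38b (0.37) were not called. With the median of ratios 4 of the 13 were called, and with quantile normalization 3. Of 10 genes of procollagen export, 3 were called higher, namely Creb3l2 (0.93), Sec24d (0.59) and Creb3l1 (0.53), and the median was 0.09. With the median of ratios, quantile normalization or removal of mitochondrial and the 10 highest genes, 1 was called. Sar1b and Cul3, at 0.03 and -0.09, were not called. Of 8 other procollagen proteinases and enhancers, 6 were tested and 1 was called, Adamts2, the main N-proteinase, which rose from 9.95 ± 2.09 (SD, n = 4) to a mean of 44.3 FPKM, a log2 fold change of 2.06. Pcolce2 and Adamts3, at 0.47 and 0.39, were not called, and the median was 0.38. With a pseudocount of 0.1, 4 of the 6 were called, and voom on fragments called 5.

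Genes of general ER folding were counted beside them. Of 20 general ER chaperones and stress genes, 0 were called higher and 2 lower, by limma and by voom, with a median of -0.0044. Without control 1, 4 were called. Hspa5 (BiP), the major ER HSP70, fell from 666 ± 89.0 to 427 ± 20.2 FPKM (SD, n = 4 each; log2 fold change -0.63, limma adjusted p = 0.000741), and Manf fell by 0.60 on the log2 scale with overlapping groups. Calr and Pdia3, at 0.16 and 0.21, were not called. At an adjusted p-value under 0.05 alone, 5 of the 20 passed, 2 of them higher and 3 lower. The 3 of these that fell short of the fold threshold, named after their values were seen, were the disulfide oxidase Ero1l (0.44, no overlap; limma adjusted p = 0.00220), the stress transcription factor Atf4 (0.49, with overlap; limma adjusted p = 0.0139) and the ER chaperone Hyou1 (-0.33, with overlap; limma adjusted p = 0.0426). At an unadjusted p-value under 0.05, 9 passed, 3 higher and 6 lower.

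Prolyl and lysyl hydroxylases belong to the 2-oxoglutarate dioxygenases, and of 9 members of that class with other substrates 0 were called by limma or by voom on fragments, with a median of -0.07. At an unadjusted p-value under 0.05, 4 passed, and at an adjusted one alone, 3. With the median of ratios 1 was called. Egln1 and Phyh, the most abundant of these, had log2 fold changes of -0.22 and -0.42. Of 12 hypoxia response genes, 3 were called higher (Car9 1.06, Bnip3 0.97 and Slc2a1 0.83) and the median was 0.30. Ldha and Aldoa, at 0.46 and 0.17, were not called. Of 9 genes of proline synthesis and recycling, 3 were called higher, with a median of 0.10. They were Pycr1 (1.33) and Aldh18a1 (0.77), enzymes of proline synthesis, and Slc1a4 (0.70), a neutral amino acid transporter. Oat (-0.06) and Slc38a2 (0.10) were not called.

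**Figure D5:**
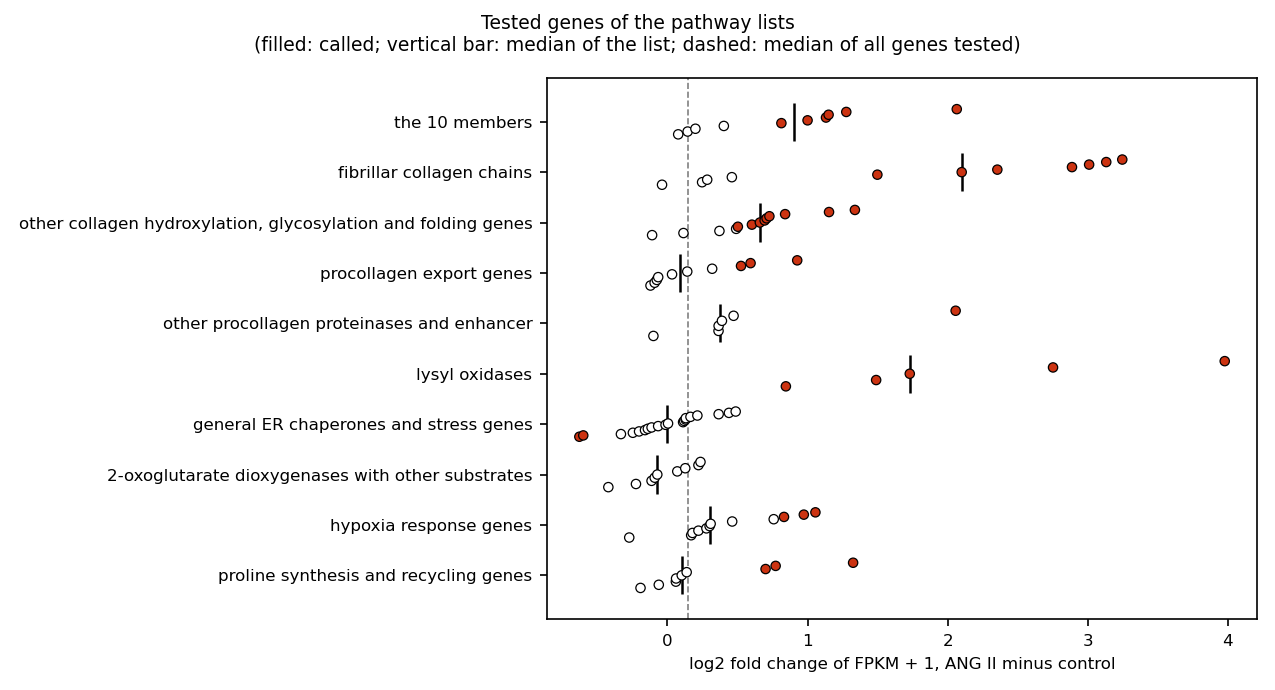
log2 fold change of FPKM + 1 (ANG II minus control) of each tested gene of the 10 processing genes and of the 9 pathway lists, with filled points for called genes, a bar at the median of each list and a dashed line at the median of all genes (0.15). The fibrillar collagens (2.10) and lysyl oxidases (1.73) have the highest medians, and the general ER chaperones lie around 0.

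The markers of some cell types differed between the groups, and those of others did not. Of 11 fibroblast markers, 7 were called higher and 0 lower, from Pdgfra (0.67) to Mfap5 (2.75). Gsn, the most abundant of them (-0.50, limma adjusted p = 0.0280), and Scara5 (-0.53, limma adjusted p = 0.136), both named after their values were seen, were not called. The summed FPKM was 1078 to 1410 in control and 1366 to 1727 in ANG II, with overlap. Of 8 markers of activated fibroblasts, 7 were called higher, from Fap (0.82) to Cthrc1 (4.83). Acta2, the smooth muscle actin of myofibroblasts and named after its values were seen, was the exception, with 108 ± 25.9 FPKM in control, 92.6 ± 15.2 FPKM in ANG II (SD, n = 4 each), overlapping groups and a log2 fold change of -0.20 (limma adjusted p = 0.385). The 8 markers had sums of 134 to 223 and 801 to 1237 FPKM. All 8 macrophage markers were called higher, from Mrc1 (1.00) to Cd68 (1.71), with sums of 174 to 214 and 427 to 577 FPKM. Of 8 cardiomyocyte markers, 2 were called lower, Tnni3 (-0.58) and Myh6 (-0.55). Of 7 endothelial markers 1 was called higher (Pecam1, 0.52), and of 8 smooth muscle and pericyte markers 3 were called higher (up to 1.18 for Cnn1) and 1 lower (Abcc9, -0.55). Of 3 atrial markers limma called 1 (Sln, 1.69, with overlapping groups) and voom called 3. Myl7 (2.38) and Myl4 (2.23), named after their values were seen, had no overlap and limma adjusted p-values of 0.0557 each. The 3 had sums of 1.15 to 48.8 FPKM in control and 52.5 to 230 FPKM in ANG II. Of 5 lymphocyte and 5 mesothelial markers 0 were called by limma, 2 and 0 had an unadjusted p-value under 0.05, and voom called 1 and 0. No marker was at 0 in all libraries.

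The values per 1000 FPKM of the summed fibroblast markers depended on 1 marker. Gsn averaged 819 FPKM of a sum of 1317 FPKM in control and 587 of 1596 FPKM in ANG II. With it in the sum, the groups stayed apart for the 6 called genes, and the ANG II mean was 34.0 times the control mean for P4ha3 (61.6 without control 2, 25.5 without control 1), 2.05 for Pcolce, 1.90 for Fkbp10, 1.90 for Bmp1, 1.74 for Plod2 and 1.49 for Plod3. For Serpinh1 (1.08), P4ha2 (0.930), Plod1 (0.900) and P4ha1 (0.836) the groups overlapped. Without Gsn, an alternative chosen after seeing the data, the sum of the other 10 markers averaged 498 FPKM without and 1009 FPKM with ANG II. That sum holds the 7 markers called higher, and Mfap5 alone rose from 26.9 to 185 FPKM, so it too depends on its markers. On that scale P4ha3 alone of the 10 genes stayed above without overlap, at 20.1 times the control mean. The groups overlapped for Pcolce (1.21), Bmp1 (1.13), Fkbp10 (1.13), Plod2 (1.02), Plod3 (0.886) and P4ha1 (0.495), and ANG II lay below without overlap for Serpinh1 (0.640), P4ha2 (0.552) and Plod1 (0.534). The part of cell composition in the changes was not tested.

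The 10 genes did not vary as a block among the control libraries. In control 2 the 4 uncalled genes (P4ha1, P4ha2, Plod1 and Serpinh1) had their lowest control values, while 5 of the 6 called genes (P4ha3, Plod2, Fkbp10, Pcolce and Bmp1) had their highest. Control 2 also had the lowest control value for 18 of the 20 general ER chaperones and stress genes, and the highest for 7 of the 11 fibrillar collagen chains. In control 3 the 4 uncalled genes had their highest control values. These placements were noticed after the values were seen, and no test was made of them.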

How the data were processed

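Total RNA from mouse left ventricle was enriched for mRNA on oligo(dT) beads and sequenced as paired-end reads of 150 bases (4 control and 4 ANG II libraries, grouped by treatment label). The authors deposited 1 table of FPKM values with 1 column per library. The submitters' processing notes name HISAT, Bowtie2 and RSEM. Their versions, the genome build, the annotation and the use of strand were not given in the sources used here. The study's methods speak of more replicates per group than the 4 analysed here.

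The deposited FPKM values were tested as log2(FPKM + 1) with limma 3.58.1 in R 4.3.3 (trend, no covariates, two-sided) for genes whose mean over the libraries was 0.1 FPKM or more, with the study's 2 thresholds. Base 2, the pseudocount and the filter were choices of this work. The labels only number the libraries, and 1 mouse per library was assumed. The p-values set the difference between the groups against the spread between these libraries. For each of the 7 genes whose groups did not overlap, the exact two-sided permutation p was 0.0286, the smallest that 4 against 4 allows. Taking the mean length of a gene's GENCODE M21 (GRCm38) transcripts, FPKM steps fell on whole fragments for 98.1 to 98.5% of values under 60 fragments (tolerance 0.05), which gave the depth. A voom fit on these fragments was an alternative. Depth limits P4ha3 in control, where 0 fragments allow up to 3, and intervals cover counting error only.

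In simulated data with 200 changed genes among 19076, 4 were recovered at 1.5-fold, 124 at 2-fold and 192 at 3-fold, with 4 false calls each. Changes under 1.5-fold were not simulated. The changed genes all lay well above the control level of P4ha3, and every gene was given the same dispersion. Only 200 genes changed there, while 2981 were called in the data. The recovered counts are therefore not the power of the fit on the data.

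The 10 genes and all lists were chosen with earlier results of these data known. Besides the 10 genes, the text names up to 3 called genes of each list with the largest absolute log2 fold change, up to 2 uncalled genes with the highest mean, the called markers with the highest and lowest log2 fold change, the genes used in the ratios, and, added after the values were seen, genes that overlap a member, 5 uncalled markers and 3 uncalled ER genes. A name on 2 gene IDs was read from the ID with more transcripts, and 2 older symbols were matched through RefSeq. Python 3.11.15, pandas 2.3.3 and scipy 1.17.1 were used. Alternatives changed the pseudocount, filter, scaling, trend, block, thresholds, transcript length, the fibroblast sum and libraries.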

Additional observations from a re-analysis of the deposited data

Results flagged for a closer look

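Among 44 groups of 4 libraries examined, 3 held a library whose gap to its nearest neighbour took up more of the group's range than Dixon's 95% critical value allows. Chance gives this in about 1 in 20 groups. All 3 were control 2. Fkbp10 was at 12.3 FPKM there and at 8.32 to 8.82 FPKM in the other control libraries. The share of P4ha1 in the summed P4ha genes was 36.8% in control 2 and 43.0 to 43.6% in the others, and that of P4ha2 was 62.8% against 56.4 to 57.0%. The last 2 are not independent, since both shares have the same sum. Without control 2, the difference in the P4ha1 share between ANG II and control was -5.22 percentage points in place of -3.59, and that in the P4ha2 share was 1.35 in place of -0.19.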

How the results depend on the processing

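The 6 called genes kept their calls under all 17 alternatives that left the thresholds as they were, and P4ha1, P4ha2 and Plod1 were called under none of 19. Under a fold change threshold of 1, Plod3 (0.81) lost its call, and with the adjusted p-value alone Serpinh1 (0.40) gained one. The sign turned for P4ha1 with the median of ratios (-0.15), quantile normalization (-0.11), removal of mitochondrial and the 10 highest genes (-0.066) and without control 2 (-0.13). It turned for P4ha2 with the median of ratios (-0.025), and for Plod1 with these 3 scalings (-0.082, -0.026 and -0.0013).

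Counts over all genes moved to 1671 higher and 806 lower with the median of ratios, to 1413 and 986 with quantile normalization, to 548 lower without mitochondrial and highest genes, to 795 (767 and 28) at a threshold of 1 and to 6447 (5496 and 951) with the adjusted p-value alone. Called hydroxylation, glycosylation and folding genes moved from 9 to 4, 3 and, at a threshold of 1, 2. Called export genes moved from 3 to 1 under each of the 3 scalings and to 0 at a threshold of 1, and called dioxygenases with other substrates from 0 to 1 under the 3 scalings and 3 by adjusted p-value alone. Called proteinases moved from 1 to 4 (pseudocount 0.1 or adjusted p-value alone) and 5 (voom). Called ER genes went from 2 to 0 at a threshold of 1 and to 5 by adjusted p-value alone, and called hypoxia and proline genes from 3 to 1 each at a threshold of 1, with 7 hypoxia genes by adjusted p-value alone. With the longest transcripts, chosen after seeing the data, the rise in the P4ha3 share was 5.30 in place of 3.78 percentage points. Per 1000 FPKM of the fibroblast markers without Gsn, also chosen after seeing the data, the ratio of ANG II to control was 0.495 for P4ha1, 0.552 for P4ha2, 20.1 for P4ha3, 0.534 for Plod1, 1.02 for Plod2, 0.886 for Plod3 (turned from 1.49), 0.640 for Serpinh1, 1.13 for Fkbp10, 1.21 for Pcolce and 1.13 for Bmp1. The cause of the other moves was not tested.

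Leaving out 1 library at a time gave log2 fold changes of -0.13 to 0.18 for P4ha1, 6 called members each time, 2722 to 3078 called genes, 2 to 4 called ER genes (4 without control 1) and 1 to 2 called proteinases (2 without control 2). The P4ha3 ratio to the whole fibroblast sum was 25.5 to 61.6, the highest without control 2. Same-numbered libraries had correlations of -0.03 to 0.06 between their deviations (4 pairs), and different-numbered libraries had -0.09 to 0.09. Pairing by number was not seen, and 4 pairs are too few to exclude it. With the replicate number as a block, 2968 genes and the same number of members (6) were called.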
